A study of Homo sapiens with 6 samples.

Results

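The Wnt genes examined here are 10 genes chosen by name, of 19792 listed in the deposited comparison: the ligands WNT5A and WNT5B, the receptors FZD1, FZD2, FZD6 and FZD7, the co-receptor LRP6, the secreted antagonist DKK1, the feedback gene AXIN2 and the transcription factor TCF7L2. All 10 had a row and an adjusted p-value. The RNA came from BT-549/tet-WDR5shRNA cells, a puromycin-resistant derivative of the human triple-negative breast cancer line BT-549 in which doxycycline (DOX) switches on a short hairpin RNA against WDR5, a subunit of the COMPASS complexes that methylate histone H3. The vehicle group was 3 cultures given 0.1% DMSO and the DOX group was 3 cultures given 500 ng/ml doxycycline for 7 days. Every culture carried the WDR5 hairpin, and no cells with a control hairpin were analysed here, so an effect of doxycycline cannot be told apart from an effect of WDR5 silencing. The RNA is described as coming from triplicate cultures, and the study's methods state for its experiments in general that replicates were biological and independent.

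Wnt proteins are secreted, lipid-modified ligands that bind Frizzled receptors at the cell surface. In the canonical branch, a Wnt joins a Frizzled to LRP5 or LRP6, the complex that degrades beta-catenin is inhibited, and beta-catenin enters the nucleus and acts with TCF/LEF factors on target genes that include the feedback inhibitors AXIN2 and DKK1. WNT5A and WNT5B are best known for the non-canonical branch, which runs through ROR and RYK receptors and the planar cell polarity proteins and acts on cell shape and movement.

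The counts of single libraries given below were reconstructed and are not in the deposited table, which lists for each gene the mean normalized count over all 6 libraries. Genes with 1 read in the whole experiment gave the size factor of each library, and the mean count of each gene, printed to 15 digits, was then searched for whole reads in each library. The search was held near the group means that the deposited fold change implies, within a range set by its standard error or by the count. Where several sets of reads gave the same mean, the set that returned the deposited fold change was kept, with the deposited standard error fixing the dispersion. For the 10 genes the kept set returned the fold change to within 4.95e-08 on the log2 scale, and the nearest other set missed it by at least 4.59e-06. Within the limits of the search, the number of sets to choose from ranged from 1 for FZD7 to 1337 for FZD6. The sign of the deposited fold change puts a library in its group, but no library could be tied to a replicate number, and the libraries are called a, b and c in order of falling size factor. Size factors were 0.737 to 1.159 with vehicle and 0.967 to 1.344 with DOX, so the DOX libraries were on the whole the deeper ones. WDR5 had 2048, 2078 and 1914 normalized counts with vehicle and 289, 279 and 250 with DOX, which is 13.6% of vehicle (95% interval 12.2 to 15.2%). The mesenchymal markers VIM, FN1 and SPARC had mean normalized counts of 47782, 30461 and 19657, and log2 fold changes of 0.25, 0.29 and 0.27. CDH2 and COL1A1, at means of 4093 and 4755, had log2 fold changes of 0.85 and -0.04, and COL1A1 did not pass the test. Of the 7 luminal and epithelial markers, ESR1, PGR and EPCAM were near 0, at 0.790, 0.801 and 1.30, and KRT18, GATA3, CDH1 and KRT8 had means of 435, 362, 59.6 and 57.3. KRT18 and GATA3 rose by 1.04 and 0.64 on the log2 scale, CDH1 had a log2 fold change of -0.68 (adjusted p = 0.014 in the deposited DESeq2 test) and KRT8, at -0.32, did not pass the test. Among markers of other cells, PTPRC, at a mean of 44.7, had a log2 fold change of 0.83 and passed the test. CD14, PECAM1 and ALB, with log2 fold changes of 0.64, 0.43 and -1.29, did not pass the test, and CD3E was not listed. The part of these changes in the results below was not tested.

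Promoter windows, from 250 bases before to 50 bases after a RefSeq start (GRCh38.p14), were given for 5 of the 10 genes. Those of WNT5A, FZD1 and DKK1 are shown because the first pair encode a ligand and a receptor that rose and DKK1 is a textbook target of TCF/LEF factors. Capitals mark CTTTGA, a form of the core of the TCF/LEF motif, and GGGCGG, the GC box, on either strand. Other forms of the TCF/LEF core were not searched, so a window without CTTTGA may still hold them. The windows lie at chr3:55487257-55487556 on the minus strand for WNT5A, chr7:91264183-91264482 on the plus strand for FZD1 and chr10:52314031-52314330 on the plus strand for DKK1.
WNT5A: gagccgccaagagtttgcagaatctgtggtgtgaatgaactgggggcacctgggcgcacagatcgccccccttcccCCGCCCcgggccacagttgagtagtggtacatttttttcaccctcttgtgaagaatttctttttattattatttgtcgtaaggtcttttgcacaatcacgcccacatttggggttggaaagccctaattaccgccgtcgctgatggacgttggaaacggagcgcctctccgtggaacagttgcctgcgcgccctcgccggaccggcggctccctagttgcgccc
FZD1: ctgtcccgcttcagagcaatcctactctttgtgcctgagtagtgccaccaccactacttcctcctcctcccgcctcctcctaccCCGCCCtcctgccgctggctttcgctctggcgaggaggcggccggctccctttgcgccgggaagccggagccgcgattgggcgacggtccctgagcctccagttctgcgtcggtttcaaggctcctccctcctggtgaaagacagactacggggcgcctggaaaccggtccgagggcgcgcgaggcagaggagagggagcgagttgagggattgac
DKK1: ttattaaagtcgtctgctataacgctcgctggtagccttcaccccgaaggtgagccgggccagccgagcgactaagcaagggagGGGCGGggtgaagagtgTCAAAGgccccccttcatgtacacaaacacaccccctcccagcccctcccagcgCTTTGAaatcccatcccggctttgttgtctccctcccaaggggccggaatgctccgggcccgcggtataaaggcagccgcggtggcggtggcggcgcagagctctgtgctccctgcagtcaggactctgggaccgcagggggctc
The DKK1 window held 2 matches to CTTTGA, which was found in 12.9% of 35116 windows of this length, and 1 to GGGCGG, found in 45.0%. The WNT5A and FZD1 windows shown each held 1 match to GGGCGG and 0 to CTTTGA. WNT5A has a second window, at chr3:55481349-55481648, with 0 matches to either motif and a GC content of 63.7%. The WNT5B windows held 0 and 2 matches to GGGCGG, and those of TCF7L2, which did not pass the test, held 5, 0 and 0. None of these held CTTTGA. GC content was 56.3%, 65.7% and 63.7% for the windows shown of WNT5A, FZD1 and DKK1, against a median of 58.7% over all windows. A match is a run of letters and not evidence of binding. The windows of FZD2, FZD6, FZD7, LRP6 and AXIN2 were not analysed here.

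Of the 10 genes, 4 were higher with DOX and 0 were lower at an adjusted p under 0.05 in DESeq2's Wald test as deposited, with Benjamini-Hochberg adjustment over 15954 genes. Over all those genes, 24.3% were higher and 22.5% were lower. The genes that rose were WNT5A, WNT5B, FZD1 and FZD7. None of the 10 changed by a log2 fold change of 1 in size, which 5.06% of all tested genes did in either direction with an adjusted p under 0.05. At an unadjusted p under 0.05, 0 of the 10 were lower and LRP6 joined the genes that were higher. The share of all genes past that looser threshold was not counted. The median log2 fold change was 0.15 over the 10 genes and -0.01 over all genes tested. The 10 genes were chosen with earlier results of these data known. They had mean normalized counts of 308 to 1810, whereas 13548 of the 19792 listed genes reached a mean of 10. The shares and the median over all genes were not matched for count.

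**Figure D1:**
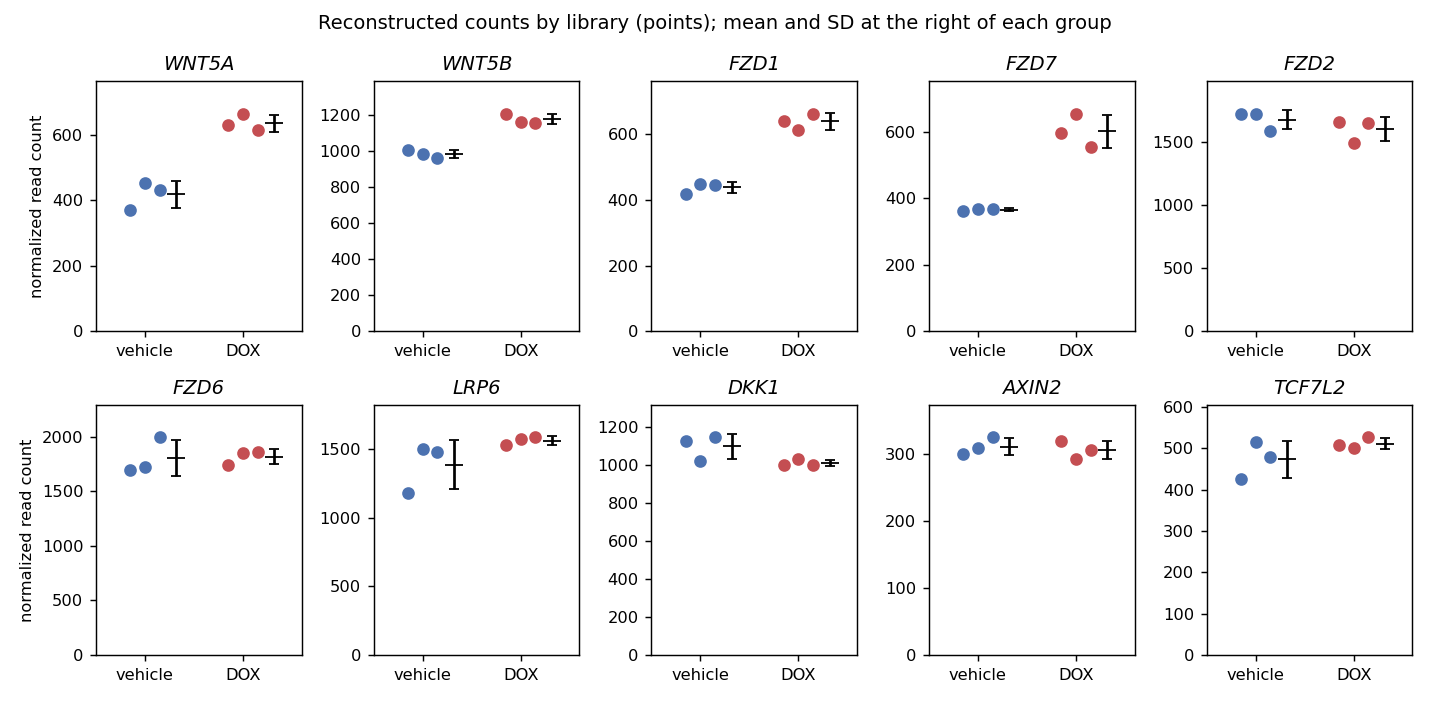
Reconstructed normalized read count (vertical axis, from 0) of each of the 10 genes in the 3 vehicle and 3 DOX libraries (points, a to c from left to right), with the group mean and SD at the right of each group. WNT5A, WNT5B, FZD1, FZD7 and LRP6 have every DOX library above every vehicle library, though LRP6 did not pass the adjusted test. FZD2, FZD6, DKK1, AXIN2 and TCF7L2 overlap. How often such separation occurs over all genes was not counted.

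The ligands both rose. WNT5A (chr3:55465715-55490539, minus strand, GRCh38), a ligand known for non-canonical signaling, had 371, 452 and 430 normalized counts in the vehicle libraries and 628, 664 and 613 in the DOX libraries. Vehicle library a was the lowest, and the groups did not overlap. The log2 fold change was 0.61 (SE 0.10, adjusted p = 2.2e-09), or 153% of vehicle (95% interval 134 to 174%). Its close relative WNT5B (chr12:1529891-1647212, plus strand) had 1004, 985 and 962 normalized counts with vehicle and 1208, 1162 and 1159 with DOX. The WNT5B libraries lay close together within each group and the groups were apart. WNT5B rose by a log2 fold change of 0.26 (SE 0.07, adjusted p = 6.6e-04), to 119% of vehicle (109 to 131%). The change of WNT5A exceeded that of WNT5B by 0.36 on the log2 scale (95% interval 0.12 to 0.59, taking the errors of the 2 genes as independent). Per kilobase of mRNA, WNT5B was the more abundant, with a mean normalized count of 483 per kb against 90.1 for WNT5A. WNT5A-AS1 and FBXL14 overlap WNT5A and WNT5B on the other strand. The kit keeps strand, but the use of strand in counting is not given in the sources used here, and a share of reads from these neighbors cannot be told apart.

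Of the Frizzled receptors, FZD7 and FZD1 rose, whereas FZD2 and FZD6 did not pass the test. FZD7 (chr2:202033855-202038441, plus strand) had 362, 368 and 368 normalized counts with vehicle and 596, 655 and 555 with DOX. The vehicle libraries were nearly equal and the DOX libraries were spread over a CV of 8.35%, with no overlap. Its log2 fold change was 0.72 (SE 0.10, adjusted p = 2.5e-12), or 165% of vehicle (144 to 188%), and 93.2% of all tested genes had a lower fold change. FZD1 (chr7:91264433-91271326, plus strand) had 419, 449 and 447 normalized counts with vehicle and 640, 614 and 663 with DOX. All 3 DOX libraries of FZD1 were above the vehicle libraries, at a log2 fold change of 0.55 (SE 0.09, adjusted p = 1.0e-08) and 146% of vehicle (129 to 165%).

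FZD2 (chr17:44557484-44561262, plus strand) had 1720, 1726 and 1592 normalized counts with vehicle and 1661, 1493 and 1656 with DOX. The groups overlapped, and the log2 fold change was -0.07 (SE 0.07, adjusted p = 0.44), with an interval of 87.0 to 105% of vehicle. FZD6 (chr8:103298433-103332866, plus strand) had 1697, 1721 and 1994 normalized counts with vehicle and 1737, 1851 and 1862 with DOX. Vehicle library c was the highest of the 6, and the log2 fold change was 0.01 (SE 0.07, adjusted p = 0.92), with an interval of 91.6 to 111% of vehicle. The FZD6 locus also holds BAALC-AS1 on the other strand. Per kilobase, FZD6 and FZD2 were the abundant receptors of the 4, at 486 and 434 mean normalized counts per kb, and FZD7 and FZD1 had 106 and 78.1. The changes of FZD7 and FZD1 differed from those of FZD6 and FZD2 by 0.53 to 0.79 on the log2 scale, and each of these 4 intervals lay above 0, the lowest bound being 0.31. This grouping follows the test results above, so it is not separate evidence. The intervals between receptors are unadjusted and take the errors of different genes as independent. FZD7 and FZD1 could not be told apart (difference 0.17, interval -0.09 to 0.44), nor could FZD6 and FZD2 (0.08, interval -0.11 to 0.27).

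LRP6 (chr12:12116025-12267044, minus strand), which pairs with Frizzled in canonical signaling, had 1185, 1501 and 1480 normalized counts with vehicle and 1529, 1576 and 1588 with DOX. The groups did not overlap, but vehicle library a stood well below the other vehicle libraries and the DOX libraries were close to vehicle libraries b and c. The log2 fold change of 0.18 (SE 0.08) had an unadjusted p of 0.0311 and an adjusted p of 0.064. In a refit with the dispersion kept, it was 0.07 without vehicle library a, 0.24 without b and 0.22 without c. The last 2 had an unadjusted Wald p under 0.0234, the largest p called at an adjusted p under 0.05 in the full data. The refits had no adjustment of their own. BCL2L14 overlaps LRP6 on the other strand.

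DKK1 (chr10:52314281-52318042, plus strand), which binds LRP6 and blocks canonical signaling, had 1128, 1022 and 1147 normalized counts with vehicle and 1001, 1032 and 1003 with DOX. DOX library b lay above vehicle library b, so the groups overlapped, and the log2 fold change was -0.12 (SE 0.07, adjusted p = 0.17), with an interval of 83.4 to 102% of vehicle. DKK1 was the most abundant of the 10 genes per kilobase, at 585 mean normalized counts per kb. AXIN2 (chr17:65528563-65561648, minus strand), the scaffold that beta-catenin induces as a brake on itself, had 299, 308 and 324 normalized counts with vehicle and 319, 293 and 306 with DOX. The AXIN2 groups overlapped, with DOX library b the lowest of the 6 and vehicle library c the highest, and the log2 fold change was -0.02 (SE 0.11, adjusted p = 0.92). Its interval ran from 84.9 to 115% of vehicle. TCF7L2 (chr10:112950247-113167678, plus strand), a DNA-binding partner of beta-catenin, had 425, 515 and 478 normalized counts with vehicle and 507, 499 and 526 with DOX. Vehicle library a was again the lowest, the groups overlapped, and the log2 fold change was 0.12 (SE 0.10, adjusted p = 0.34), with an interval of -0.07 to 0.31. PRKG1-AS1 overlaps DKK1 on the other strand, as does a gene without a symbol for TCF7L2. On the same strand, a gene without a symbol overlaps AXIN2, and RPS15AP30 overlaps TCF7L2. A share of reads from these neighbors cannot be told apart.

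**Figure D2:**
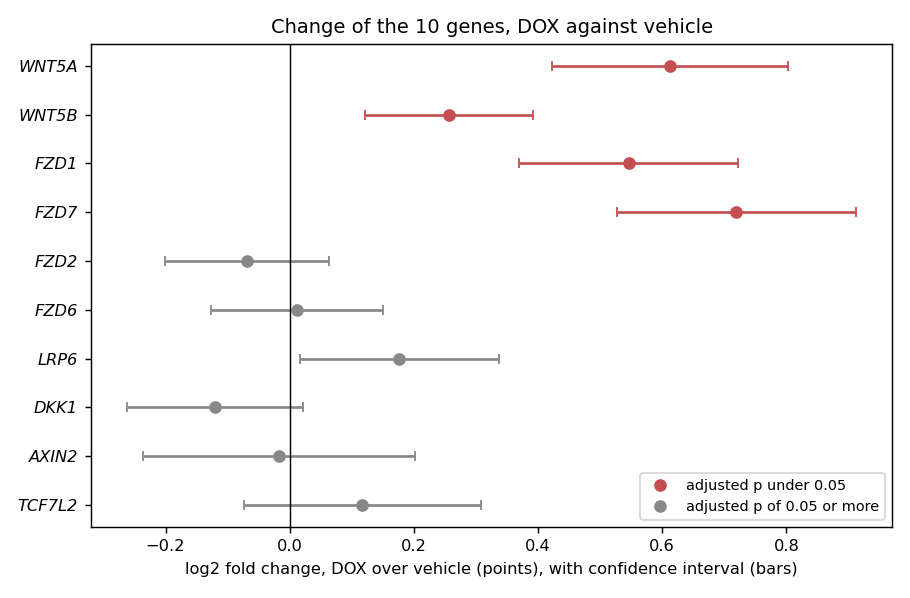
Log2 fold change of DOX over vehicle as deposited (horizontal axis) for the 10 genes (rows), with 95% intervals, red where the adjusted p was under 0.05 and gray where it was not. The intervals of WNT5A, WNT5B, FZD1 and FZD7 lie above 0, and that of LRP6 starts at 0.02.

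The rest of the pathway was described from 10 lists of 110 genes, of which 86 had an adjusted p. Of these, 29 rose and 21 fell, and without the 10 genes above, 25 of 76 rose and 21 fell, with a median log2 fold change of 0.01. Over all genes tested, 24.3% were higher and 22.5% were lower, and the counts of each list below are to be read against these shares. The lists were chosen with results of these data known.

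Among the ligands, 8 of 19 were tested, and WNT2B, WNT3 and WNT9A fell while WNT5A and WNT5B rose. WNT2B, a canonical ligand, ranged from 159 to 254 normalized counts with vehicle and from 102 to 127 with DOX, at a log2 fold change of -0.80 (adjusted p = 3.8e-05). WNT3 and WNT9A, named after their values were seen, had log2 fold changes of -1.48 and -0.79 at mean normalized counts of 31.5 and 32.5. WLS, the carrier that brings Wnt proteins to the cell surface, rose by 0.27 (adjusted p = 4.2e-07).

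In the Frizzled family, 5 of 9 tested receptors rose and the other 4 did not pass the test. FZD4 had 1140 to 1229 normalized counts with vehicle and 1999 to 2099 with DOX, a log2 fold change of 0.80. FZD3, a receptor of the planar cell polarity branch, had 38.0 to 42.9 with vehicle and 53.7 to 73.7 with DOX, and rose by 0.71. Without DOX library a, the FZD3 change was 0.61 and no longer passed the refit cutoff, an unadjusted Wald p of 0.0234. FZD8, named after its value was seen, rose by 0.35. Of 6 co-receptors, 4 rose, and LRP6 and ROR2 did not pass the test. LRP5, the relative of LRP6, had 449 to 502 normalized counts with vehicle and 729 to 837 with DOX, a log2 fold change of 0.75 (adjusted p = 1.2e-15). ROR1, a receptor for WNT5A, rose by 0.47, and RYK and PTK7, named after their values were seen, rose by 0.32 and 0.29.

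Of 7 tested antagonists and Kremen receptors, SFRP1 and SFRP2, secreted proteins that bind Wnts, rose and DKK3 fell. SFRP1 had 1123 to 1127 normalized counts with vehicle and 1923 to 1953 with DOX, a log2 fold change of 0.79, and SFRP2 rose by 0.44. DKK3 had a log2 fold change of -0.63 at a mean normalized count of 81.4. The R-spondins amplify Wnt signals through LGR receptors, and here RSPO3 and RSPO2 fell with log2 fold changes of -1.08 and -0.36, at mean normalized counts of 2909 and 6172. LGR4 rose by 0.65, from 833 to 953 normalized counts with vehicle to 1276 to 1436 with DOX, and LGR5, named after its value was seen, had a log2 fold change of -1.63 at a mean normalized count of 18.8.

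Of 18 genes for Dishevelled and the destruction complex, 5 rose and 3 fell. DVL2, which relays the signal from Frizzled, had 2293 to 2457 normalized counts with vehicle and 1443 to 1626 with DOX, a log2 fold change of -0.65. AXIN1, the constitutive relative of AXIN2, had a log2 fold change of -0.33. BTRC and FBXW11, ubiquitin ligase subunits that mark beta-catenin for degradation, rose by 0.43 and 0.42. Of 14 TCF/LEF factors and cofactors, 5 rose and 3 fell. The corepressors TLE3 and TLE4 rose by 0.59 and 0.58, and the coactivators PYGO1 and PYGO2 had log2 fold changes of -0.60 and -0.31. Neither class moved in 1 direction: the coactivators BCL9 and BCL9L rose by 0.55 and 0.58, and the corepressor TLE1 had a log2 fold change of -0.17 (adjusted p = 0.042 in the deposited DESeq2 test). These last 3 genes were named after their values were seen, as was TLE5, which rose by 0.20.

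Of 14 tested feedback and target genes, 4 fell and 2 rose. CCND1, which encodes cyclin D1, rose by 1.92 on the log2 scale, to 380% of vehicle (352 to 410%), and APCDD1, an inhibitor of Wnt signaling, rose by 0.46. MYC had a log2 fold change of -1.16, or 44.8% of vehicle (41.9 to 48.0%), and CD44 had one of -0.12. NKD2, named after its value was seen, had a log2 fold change of -1.09 at a mean normalized count of 22.8, and LGR5 is also in this list. Of 8 tested planar cell polarity genes, 5 fell and 2 rose. PRICKLE1 had 59.7 to 69.9 normalized counts with vehicle and 144 to 158 with DOX, a log2 fold change of 1.23, and VANGL1 rose by 0.60. CELSR2 and CELSR3, cadherins of the polarity complex, had log2 fold changes of -0.78 and -0.77. PRICKLE2 and CELSR1, named after their values were seen, had log2 fold changes of -0.31 and -0.69 at mean normalized counts of 2653 and 654.

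**Figure D3:**
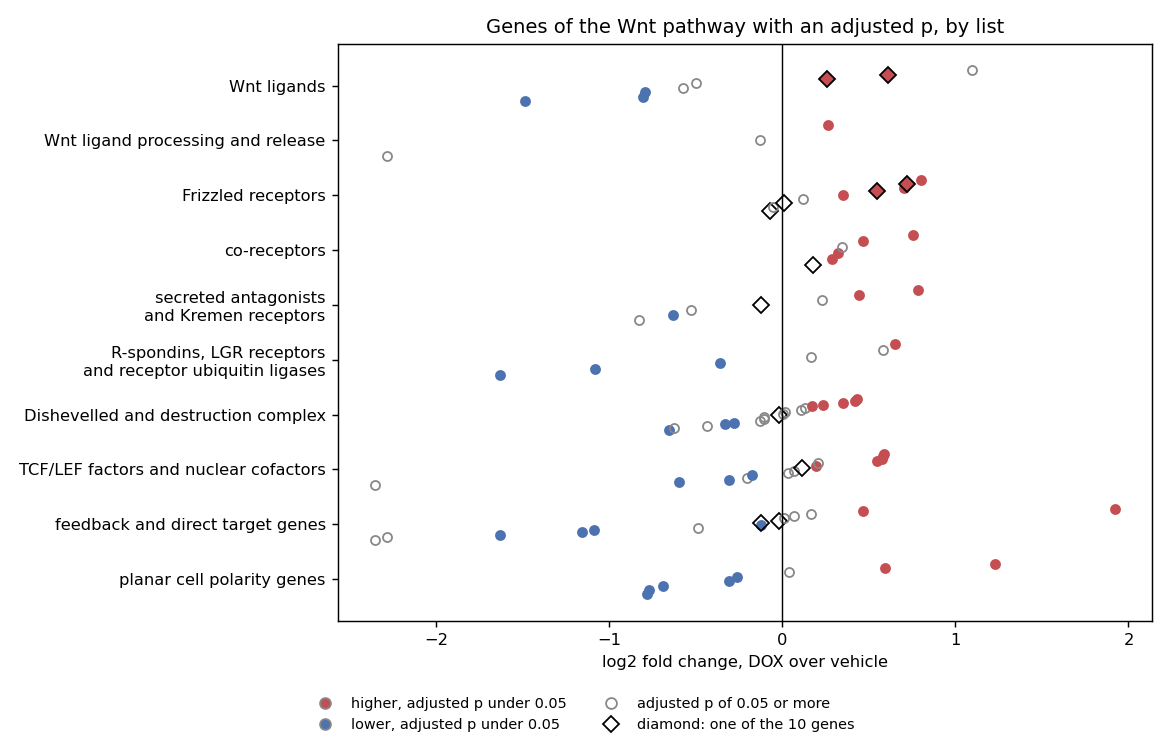
Log2 fold change of DOX over vehicle as deposited (horizontal axis) for each pathway gene with an adjusted p, by list (rows), filled where the adjusted p was under 0.05 and with diamonds for the 10 genes. In the Frizzled and co-receptor lists every filled point lies to the right of 0, and the other lists, apart from ligand processing, have filled points on both sides.

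**Figure D4:**
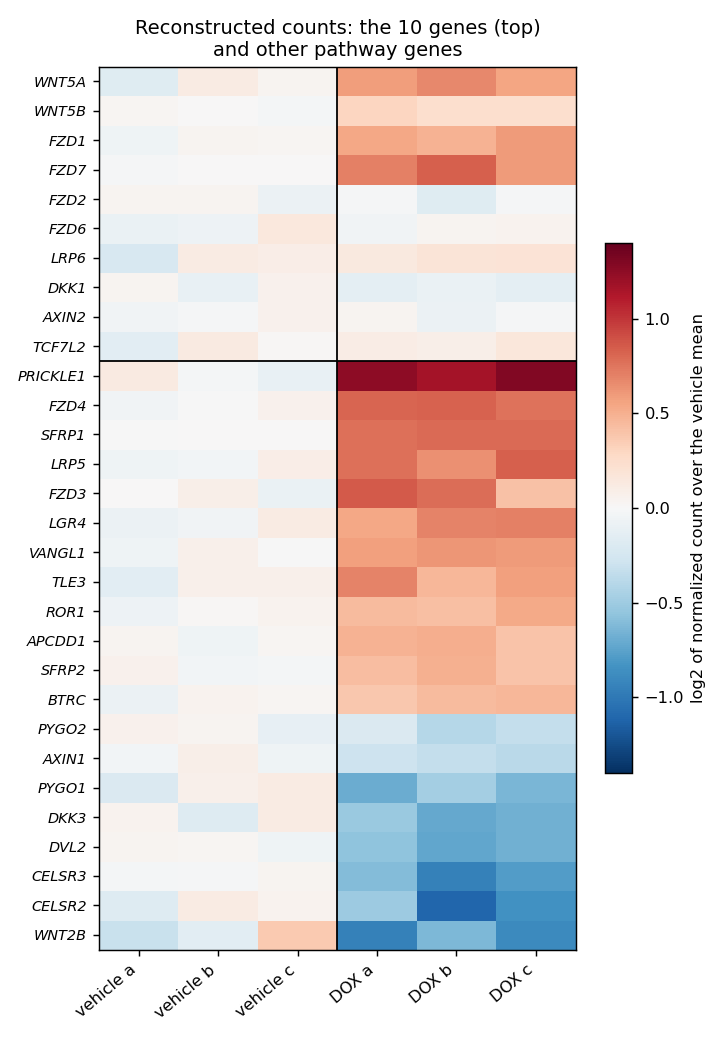
Log2 of the reconstructed normalized count over the vehicle mean (color) in each of the 6 libraries (columns), for the 10 genes (above the line) and 20 other pathway genes whose mean count did not exceed 2000 (below it). Values run from -1.11 to 1.30, and vehicle library a is bluer than vehicle libraries b and c for WNT5A, LRP6 and TCF7L2. It was also the lowest vehicle library for FZD1, FZD6, FZD7 and AXIN2, but not for WNT5B, FZD2 or DKK1. Below the line, it was the lowest for genes that include WNT2B and PYGO1.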

How the data were processed

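RNA from triplicate cultures was made into stranded poly(A) libraries, aligned to GRCh38 with STAR and compared with DESeq2 by the authors. The gene counter is not given in the sources used here. What was analysed is the authors' deposited comparison of DOX with vehicle. Its mean normalized count is a signal that the authors computed over 6 libraries, and the authors gave the fold change and its error in log2 units. A Wald score, a p-value and an adjusted p-value were deposited alongside. These are the authors' values and were used as such, since the table holds no column of a single library. The adjustment over 15954 genes was recomputed and differed by at most 1.30e-15.

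Read counts per library were reconstructed from the printed digits, as described with the results. The deposited fold change and standard error were used to bound the search and to pick among candidates, so their match is not an independent check. On simulated data, 30 of 30 genes were recovered and 0 were wrong. The simulated mean counts stayed below those of WNT5B, DKK1, LRP6, FZD2 and FZD6, which had 99 to 1337 candidate sets. The simulation therefore did not cover genes as abundant as these. All 31 genes looked for were recovered, with the fold change matched to within 3.53e-07 and the nearest other candidate at 3.99e-06 or more. Reconstructed libraries were assigned to groups by the sign of the deposited fold change and were not matched to samples.

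Intervals are 95% and use the deposited standard error. Genes named outside the 10 were, per list, the 2 that rose most and the 2 that fell most at an adjusted p under 0.05 and an average count of 50 or more. The 10 genes and all lists were chosen with earlier results of these data known. Positions and mRNA lengths came from GENCODE 44 and promoter windows from RefSeq. Alternatives were filters, thresholds, scaling, shrinkage and, added after seeing the data, leaving out each reconstructed library. The scripts ran in Python 3.11.15 with scipy 1.17.1 and numpy 2.4.6, tables were read with pandas 2.3.3, and plots were drawn with matplotlib 3.10.9.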

Additional observations from a re-analysis of the deposited data

How the results depend on the processing

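The counts of the 10 genes and of pathway genes that rose or fell stayed within 1.5 times their values under other filters before adjustment, centring and scaling to equal totals. Asking for a log2 fold change of 1 in size left 0 of the 10 genes higher, and 5 pathway genes lower and 2 higher. Testing for changes beyond 0.5 in size on the log2 scale left 0 of the 10 genes higher, and 2 pathway genes lower and 4 higher. Both ask for larger changes by construction. Leaving out each reconstructed library in turn, chosen after seeing the data and with the dispersion kept, gave log2 fold changes of 0.53 to 0.67 for WNT5A, 0.24 to 0.27 for WNT5B, 0.51 to 0.57 for FZD1 and 0.66 to 0.77 for FZD7, all past the threshold in 6 of 6 fits. LRP6 ranged from 0.07 to 0.24 and passed in 2 of 6. The threshold in these fits was an unadjusted Wald p of 0.0234, the largest p called in the full data, with no new adjustment. Of the other pathway genes refitted in this way, FZD3 lost its call without DOX library a (0.61). No paired analysis was possible because the reconstructed libraries carry no replicate number. These refits rest on reconstructed reads and on the dispersion implied by the deposited standard errors. Genes at low counts, such as LGR5, are limited by depth, and the intervals cover the spread that DESeq2 modelled.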
